A study of Mus musculus with 8 samples.

Results

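The genes described here are 34 genes of mitochondrial fatty acid oxidation and ketone body metabolism in mouse liver, taken by symbol from a fixed list of acyl-CoA activation, the carnitine shuttle, beta oxidation, electron transfer, ketone bodies and their regulators. All 34 were found among the 52636 genes listed in the files, and all 34 had enough reads to be tested. RNA of whole liver was sequenced in 8 libraries from C57BL/6 mice of 8 weeks. Both groups carried floxed Ctcf alleles (CTCF fl/fl): 4 libraries came from mice without Cre (Albcre-, called WT) and 4 from mice with Cre under the albumin promoter (Albcre+, called cKO), which is active in hepatocytes. The comparison asks which liver transcripts differed in level once Ctcf, the gene of a zinc finger protein that organises chromatin loops, was deleted in albumin-expressing cells. No library carried Cre with unfloxed Ctcf, so an effect of Cre and loss of Ctcf cannot be told apart. Whole liver was measured, so fewer cells of a type and less RNA per cell cannot be told apart either. The labels number the samples and do not say that each was a separate mouse, so the p-values may reflect technical spread between these samples only.

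Fatty acids are activated to acyl-CoA by acyl-CoA synthetases and cross the inner mitochondrial membrane as carnitine esters, and the carnitine palmitoyltransferase of the outer membrane, encoded in liver by Cpt1a, is the regulated step of that entry. In the matrix a repeating sequence of dehydrogenation, hydration, a further dehydrogenation and thiolysis shortens the chain and releases acetyl-CoA. Electrons taken by the acyl-CoA dehydrogenases pass through the electron transfer flavoprotein and its dehydrogenase to ubiquinone. In fasting liver much of the acetyl-CoA becomes ketone bodies, and the nuclear receptor PPARalpha is known to raise many of these genes.

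Totals of estimated counts ran from 43.9 M to 57.3 M reads per library. Levels are given as CPM, reads per 1 M reads after TMM scaling, which adjusts each total so that most genes are taken as unchanged. Ctcf, the targeted gene, lay lower in all cKO libraries than in any WT library, at 16.5 ± 0.41 CPM in WT and 12.2 ± 0.95 in cKO (mean ± SD, n = 4; log2 change -0.44, edgeR adjusted p = 0.00202; lost in TPM, with -0.18 and -0.15). The test was edgeR's quasi-likelihood test over 15562 genes with Benjamini-Hochberg adjustment, and "rose" or "fell" is used only of genes with adjusted p under 0.05. The 8 hepatocyte markers summed to 55405 to 74641 TPM (transcript reads scaled per length and to the same total) in WT and 66986 to 77249 in cKO, with 1 marker higher and 4 lower. All 8 stellate cell and fibroblast markers rose, from a sum of 50.2 to 57.6 TPM in WT to 142 to 211 in cKO, as did all 4 T and NK cell markers, from 2.95 to 3.58 TPM to 4.69 to 7.57. Of the 8 Kupffer cell and macrophage markers 2 rose (sum 131 to 196 TPM in WT, 129 to 200 in cKO). These were the scarce Gpnmb (mean 0.37 CPM in WT and 1.39 in cKO) and Trem2 (0.64 and 1.09). Clec4f, Adgre1, Cd5l, Timd4, Csf1r and Cd68 did not pass. Of the 4 cholangiocyte markers 2 rose (1.63 to 2.83 and 4.11 to 5.20 TPM). The endothelial markers (14.6 to 26.9 and 24.1 to 37.0 TPM), B cell markers (1.55 to 3.64 and 1.42 to 3.79) and neutrophil markers (2.97 to 5.09 and 4.22 to 20.7) did not pass. Fat markers summed to at most 0.17 TPM and muscle markers to at most 0.32, with Lep and Myh4 at 0 and Ucp1, Plin1, Ckm and Acta1 at 3 counts or fewer in all libraries. The part of non-hepatocyte RNA in the member changes given here was not tested.

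Of the 34 members 7 rose in cKO, 2 fell and 25 did not pass. The members that rose were Pdk4, Acsl4, Hadhb, Cpt1a, Acad11, Etfdh and Acadm, and the 2 that fell were Etfb and Vnn1. Called members made up 26.5% of the list against 30.4% of all tested genes, so that the share called was close to the background. By direction, 20.6% of members rose against 15.3% of all tested genes, and 5.88% fell against 15.1%. The median log2 change was 0.11 over members and -0.01 over all tested genes, and 67.6% of members had a positive log2 change against 49.2% of all tested genes and 45.6% of the 7212 genes at 10 CPM or more. In 7 members every cKO library lay above every WT library and in 2 every cKO library lay below, against 15.0% and 15.6% of all tested genes (30.6% in either direction). Except for Pdk4 the members that passed moved by less than 1.5-fold.

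**Figure D1:**
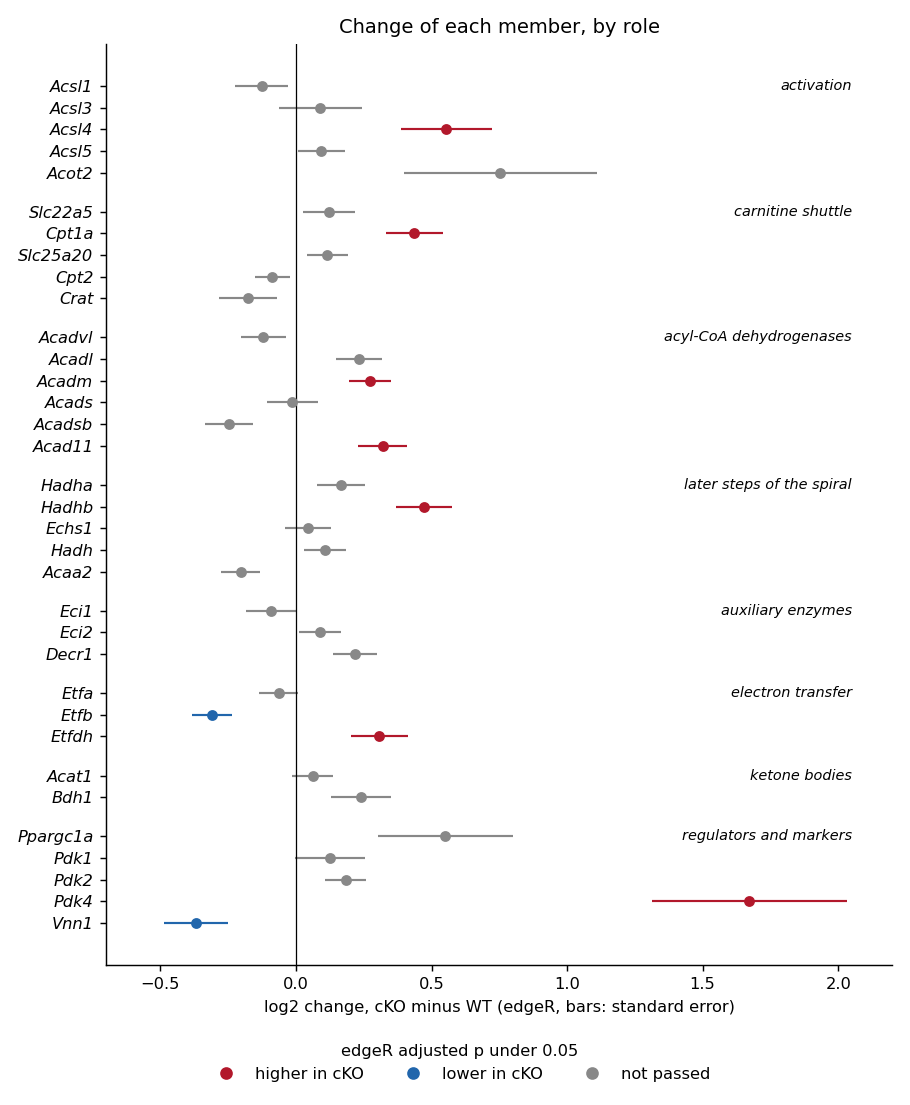
Log2 change between genotypes (cKO minus WT, x axis) for each of the 34 members, grouped by role; points are edgeR estimates and bars their standard errors, from 4 libraries per genotype. Most estimates lie between -0.4 and 0.6, with Pdk4 apart at 1.67.

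Among genes of acyl-CoA activation, 1 of 5 rose. Acsl4, a long-chain acyl-CoA synthetase with a preference for arachidonate, was at 10.7, 9.86, 11.0 and 16.7 CPM in WT 1 to 4 and at 16.2, 17.6, 15.5 and 21.5 CPM in cKO 1 to 4. WT 4 reached the cKO range, so the genotypes overlapped. Acsl4 rose by a log2 change of 0.55 ± 0.17 (SE; edgeR adjusted p = 0.0325), a call that held in 3 of 8 fits leaving out 1 library, among them the fit without WT 4 (log2 change 0.75). Leaving out WT 1, WT 2, WT 3, cKO 2 or cKO 4 ended it, with adjusted p up to 0.0895. Acsl4 is present in several non-parenchymal cell types. Markers of some such types rose and those of others did not pass, as given above, and their part in the Acsl4 change was not tested.

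Acsl1, the main long-chain synthetase of hepatocytes, was far more abundant and did not pass, at 997 ± 56.8 CPM in WT and 913 ± 115 in cKO (log2 change -0.13, adjusted p = 0.351). Acsl5 (207 ± 13.6 and 221 ± 24.2 CPM) and Acsl3 (3.70 ± 0.53 and 3.94 ± 0.67), whose reads are uncertain because it overlaps Utp14b, did not pass either. Per length, Acsl1 stood at 287 ± 19.1 TPM in WT against 2.64 ± 0.69 for Acsl4. Acot2, a mitochondrial thioesterase that releases free fatty acids from acyl-CoA, had 23.8, 13.4, 11.8 and 8.19 CPM in WT and 26.2, 16.8, 32.2 and 21.5 in cKO. WT 1 lay within the cKO range and the change did not pass (log2 change 0.75 ± 0.35, adjusted p = 0.156). Without WT 1 Acot2 did pass (edgeR adjusted p = 0.0212), as it did in both TPM fits. Acot2 has near-identical copies beside it in the genome, and the split of reads between them is uncertain. Among them is Acot1 (130 ± 42.3 and 176 ± 33.0 CPM, edgeR adjusted p = 0.201, or 0.0199 without WT 1).

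In the carnitine shuttle 1 of 5 members rose. Cpt1a (ENSMUSG00000024900, chromosome 19, 3322326 to 3385735 in mm10) was at 402, 386, 336 and 482 CPM in WT and at 526, 501, 546 and 600 CPM in cKO. All cKO libraries lay above all WT libraries, with WT 4 and cKO 2 nearest to each other. The fold was 1.35 (log2 change 0.44 ± 0.11, edgeR adjusted p = 0.0105), and the gene stayed past the threshold in 8 of 8 fits leaving out 1 library. The partner that re-forms acyl-CoA in the matrix, Cpt2, was at 251 ± 4.93 CPM in WT and 237 ± 11.2 in cKO (log2 change -0.09, adjusted p = 0.321). The carnitine-acylcarnitine carrier Slc25a20 (160 ± 5.17 and 173 ± 15.9 CPM), the carnitine importer Slc22a5 (50.0 ± 6.65 and 54.4 ± 3.57) and carnitine acetyltransferase Crat (130 ± 10.4 and 115 ± 17.5) did not pass. Crat overlaps Dolpp1 and its reads are uncertain, since the strand setting of the counting is not given in the sources used here.

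Among 6 acyl-CoA dehydrogenases, which carry out the first step at different chain lengths, 2 rose. Acadm, the medium-chain enzyme, was at 517, 457, 466 and 461 CPM in WT and at 545, 541, 587 and 624 CPM in cKO. The genotypes did not overlap (log2 change 0.27 ± 0.08, edgeR adjusted p = 0.0201). Acad11, which acts on very-long-chain substrates and 4-hydroxy acids, was at 293, 305, 269 and 353 CPM in WT and at 354, 373, 378 and 418 CPM in cKO, with the highest WT library just under the lowest cKO library (log2 change 0.32 ± 0.09, adjusted p = 0.021). Acad11 overlaps Ackr4, so its reads may include that gene's. Acadm lost its call without WT 2, WT 3 or cKO 4 (adjusted p up to 0.0591) and Acad11 without WT 1, WT 3 or cKO 4 (up to 0.0643).

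The other dehydrogenases did not pass in edgeR with the settings of the report, and their estimates went both ways. The long-chain enzyme Acadl was at 265 ± 25.6 CPM in WT and 311 ± 23.5 in cKO (log2 change 0.23, adjusted p = 0.0606), and it passed under 6 of 20 alternatives: DESeq2, the length offset, library size alone, both TPM fits and without WT 1 (adjusted p down to 0.011). The very-long-chain enzyme Acadvl was at 635 ± 28 and 585 ± 54.3 CPM (-0.12, adjusted p = 0.288), and the short-chain enzyme Acads at 184 ± 19.2 and 183 ± 18.9 (-0.01, adjusted p = 0.927). Acadsb, which acts on short branched chains from isoleucine, was at 68.0, 75.1, 80.5 and 80.5 CPM in WT and at 63.9, 72.8, 56.2 and 63.3 in cKO. Only cKO 2 reached the WT range, and the adjusted p of 0.0502 was just over the threshold. Acadsb passed in DESeq2 and without WT 1 or cKO 2, and in TPM its estimate was 0.04.

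The mitochondrial trifunctional protein carries out the last 3 steps on long chains and is built of alpha subunits from Hadha and beta subunits from Hadhb. The 2 genes lie head to head on chromosome 5, Hadha at 30119423 to 30154980 and Hadhb (ENSMUSG00000059447) at 30155253 to 30184593, so that 272 bases separate their annotated starts. The whole stretch between them is shown because both subunit genes are transcribed away from it (chr5:30154981-30155252, GRCm38.p6, the assembly called mm10; plus strand; sequence from RefSeq's promoter windows), and no letters are in capitals because none of the motifs searched was found in it.
Hadha to Hadhb: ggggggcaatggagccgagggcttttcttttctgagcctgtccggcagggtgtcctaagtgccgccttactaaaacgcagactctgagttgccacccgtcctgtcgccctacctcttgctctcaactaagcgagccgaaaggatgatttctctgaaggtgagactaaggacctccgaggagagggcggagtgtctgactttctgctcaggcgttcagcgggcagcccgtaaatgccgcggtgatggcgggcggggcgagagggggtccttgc
Its GC content is 60.3%, against 53.8% over all promoter windows, and it holds 18 CpG dinucleotides.

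Hadhb was at 252, 244, 223 and 270 CPM in WT and at 321, 290, 354 and 409 CPM in cKO. Every cKO library lay above every WT library and cKO 4 was highest (fold 1.39, log2 change 0.47 ± 0.10, edgeR adjusted p = 0.00661). Hadha was at 452, 449, 409 and 472 CPM in WT and at 486, 438, 501 and 574 in cKO, where cKO 2 lay inside the WT range and the change did not pass (log2 change 0.17 ± 0.09, adjusted p = 0.179). Within a library, where library scaling cancels, Hadhb reads were 0.558, 0.544, 0.545 and 0.573 of Hadha reads in WT and 0.659, 0.662, 0.707 and 0.712 in cKO. The genotypes did not overlap in this ratio. Its log2 difference was 0.30 (exact two-sided permutation test, n = 4 per genotype, p = 0.0286, the smallest that 70 assignments allow), and Benjamini-Hochberg adjustment over the 9 pairs compared gave 0.0643, which misses 0.05. The separation held for reads and not per length. In WT 1 Hadhb was at 195 TPM and Hadha at 198, against 221 and 233 in cKO 1, so the ratio of TPM overlapped between genotypes.

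The other later steps did not pass. The hydratase Echs1 was at 178 ± 8.98 CPM in WT and 183 ± 20.4 in cKO, where 1 library (cKO 4) stood at 214 CPM and the other 3 at 170 to 176. Echs1 overlaps Paox, and its reads are uncertain. The medium- and short-chain hydroxyacyl-CoA dehydrogenase Hadh was at 288 ± 16.6 and 310 ± 24.6 CPM (adjusted p = 0.318). The thiolase Acaa2 was at 1098, 1070, 1121 and 1127 CPM in WT and at 1032, 934.5, 898 and 967 in cKO. All 4 cKO libraries lay below all WT libraries, although the change missed the threshold in edgeR (log2 change -0.20 ± 0.07, adjusted p = 0.0533). Acaa2 passed in DESeq2, in limma-voom and without cKO 1, with adjusted p from 0.0103 to 0.797 over all alternatives.

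The 3 enzymes that prepare double bonds of unsaturated fatty acids did not pass in edgeR with the settings of the report or in limma-voom. Of these, 1, Decr1, was past unadjusted p under 0.05 in edgeR and passed in DESeq2. Decr1, the 2,4-dienoyl-CoA reductase, was at 323, 332, 299 and 336 CPM in WT and at 352, 339, 391 and 418 in cKO. Its genotypes did not overlap, with WT 4 and cKO 2 close together, and the edgeR adjusted p was 0.0634 (log2 change 0.22). Decr1 also passed with library size alone, in both TPM fits and without cKO 2, with adjusted p down to 0.0124 over all alternatives. The enoyl-CoA isomerases Eci1 (223 ± 29.4 and 209 ± 8.51 CPM) and Eci2 (323 ± 11.4 and 343 ± 29.6) had adjusted p of 0.470 and 0.405.

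The 3 genes of electron transfer went apart. Etfb (ENSMUSG00000004610, chromosome 7, 43444072 to 43457800), the beta subunit of the electron transfer flavoprotein, was at 700, 632, 666 and 648 CPM in WT and at 562, 562, 499.7 and 511 in cKO. Every cKO library was below every WT library (fold 0.807, log2 change -0.31 ± 0.07, edgeR adjusted p = 0.0092). This call held in 8 of 8 fits leaving out 1 library and was lost when library size alone set the scale (-0.20, adjusted p = 0.0503) and in TPM (-0.09, adjusted p up to 0.262). Etfa, the alpha subunit, did not pass, at 245 ± 14.6 and 234 ± 12.5 CPM (log2 change -0.06, adjusted p = 0.517).

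Etfdh, which passes the electrons to ubiquinone, was at 234, 246, 228 and 251 CPM in WT and at 265, 257, 297 and 366 in cKO. The genotypes did not overlap, though cKO 2 lay close to WT 4 and cKO 4 stood highest (log2 change 0.31 ± 0.10, edgeR adjusted p = 0.0445). The call was lost in limma-voom and without WT 1, WT 2, WT 3, cKO 3 or cKO 4, the last giving a log2 change of 0.19. Etfb reads were 2.64, 2.66, 2.87 and 2.65 times Etfa reads in WT and 2.54, 2.42, 2.15 and 2.03 times in cKO. The subunit ratio was lower in all cKO libraries than in any WT library, with a log2 difference of -0.25 (exact two-sided permutation test, n = 4 per genotype, p = 0.0286, adjusted 0.0643). Etfb overlaps Cldnd2 and Etfdh overlaps Ppid, which makes their reads uncertain.

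**Figure D2:**
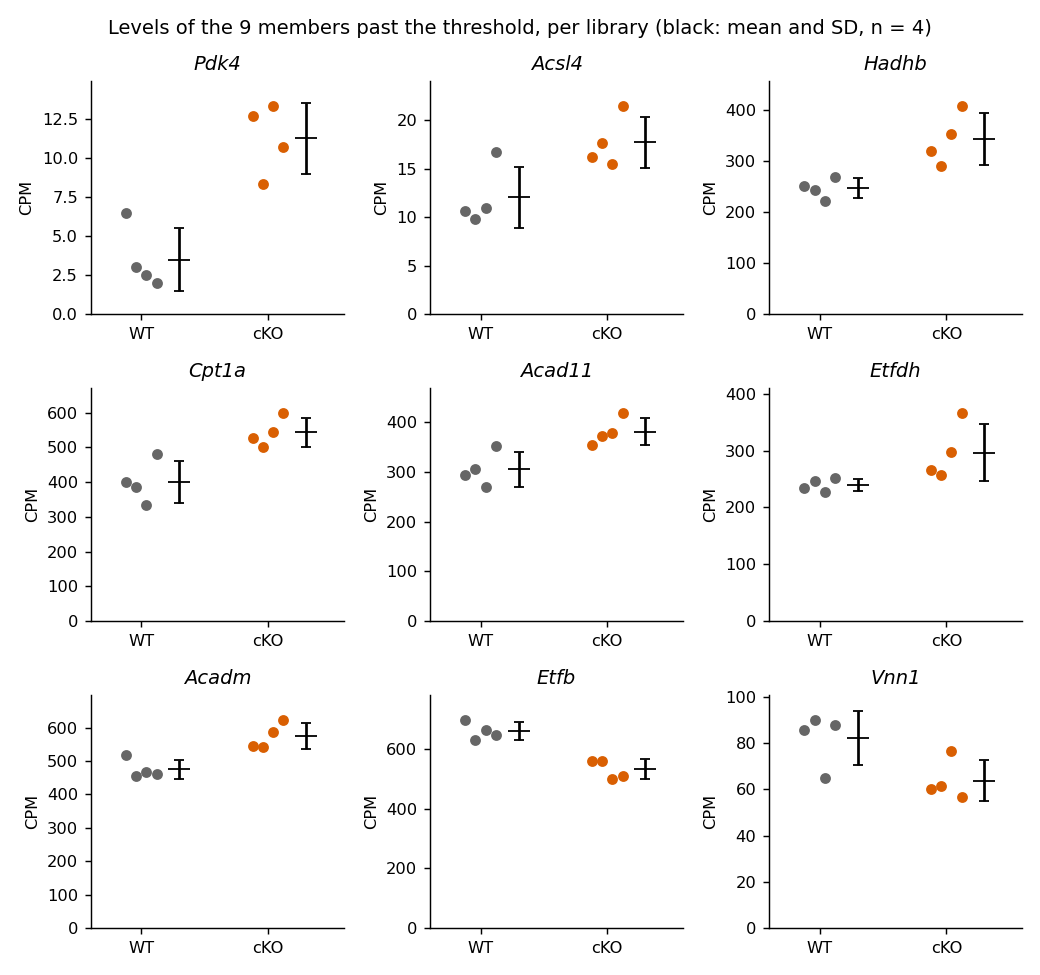
Level in CPM (y axis, from 0) of the 9 members with edgeR adjusted p under 0.05, 1 point per library, WT in grey and cKO in orange, with the mean and SD of 4 libraries in black. The genotypes overlap in Acsl4 and Vnn1 and are apart in the other 7 genes.

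Neither of 2 ketone body members passed in edgeR with the settings of the report, and neither was past unadjusted p under 0.05 there. Acat1, whose thiolase joins acetyl-CoA units at the start of ketogenesis and splits acetoacetyl-CoA in ketone use, was at 442 ± 14.2 CPM in WT and 461.5 ± 38.1 in cKO (log2 change 0.06, adjusted p = 0.565). Bdh1, which interconverts acetoacetate and beta-hydroxybutyrate, was at 288, 323, 233 and 299 CPM in WT and at 388, 334, 292 and 337 in cKO. The genotypes overlapped through cKO 3, which lay among the WT libraries (log2 change 0.24, adjusted p = 0.121). Bdh1 did pass with library size alone, in both TPM fits and with the replicate number as a block, with adjusted p down to 0.0191.

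Pdk4 had the largest change of the 34 members. It encodes a pyruvate dehydrogenase kinase that limits the use of pyruvate when fatty acids are burned, and it is induced by fasting in liver. Pdk4 (ENSMUSG00000019577, chromosome 6, 5483351 to 5496278) was at 6.49, 3.02, 2.5 and 2.01 CPM in WT and at 12.7, 8.32, 13.3 and 10.7 CPM in cKO. All cKO libraries lay above the highest WT library, WT 1, which was itself apart from the other WT libraries. The fold was 3.19 (log2 change 1.67 ± 0.36, edgeR adjusted p = 0.0118), and it ran from 1.48 to 2.16 on the log2 scale when 1 library was left out, past the threshold in 8 of 8 fits. Per length it remained among the scarcest members, at 1.22 ± 0.66 TPM in WT.

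The related kinases did not pass, with Pdk2 at 95.7 ± 2.32 CPM in WT and 109 ± 10.4 in cKO (adjusted p = 0.0862) and Pdk1 at 32.1 ± 3.99 and 35.1 ± 6.19 (adjusted p = 0.485). Ppargc1a, a coactivator of genes of oxidation and of mitochondrial biogenesis, was at 4.34, 6.84, 5.64 and 6.11 CPM in WT and at 6.24, 8.44, 6.06 and 12.8 in cKO. The genotypes overlapped and 1 library, cKO 4, was above all others (log2 change 0.55 ± 0.25, adjusted p = 0.126). Vnn1, a pantetheinase that releases a precursor of coenzyme A and cysteamine and is a known target of PPARalpha, was at 85.8, 90.2, 65.1 and 87.9 CPM in WT and at 60.0, 61.4, 76.7 and 56.6 in cKO. WT 3 and cKO 3 crossed over, and the fall (log2 change -0.37 ± 0.12, adjusted p = 0.0359) was lost under 12 of 20 alternatives, among them the fits without WT 1, WT 2, WT 4, cKO 1, cKO 2 or cKO 4.

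Promoter windows from 250 bases before to 50 bases after the start were in the RefSeq table for 29 of the 34 members. The direct repeat of AGGTCA with 1 base between the copies, the textbook element of PPARalpha, was searched on both strands and found in 0 of 29 members (0.0481% of 27025 genes). The looser form, a repeat of AGGNCA with the same spacing, which includes the first, was also in 0 of 29 (0.451% of genes). These letters are rare in any window of this length. A CTCF core (CC, any 3 bases, AG, any 2 bases, GGC; both strands) was in the windows of 4 of 29 members against 9.84% of genes, which leaves the members near the background. A match is a run of letters, and binding of CTCF was not measured in these libraries.

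Ratios of members within a library were compared for 9 pairs in all. Reads of Cpt1a were 1.35 to 1.86 times those of Cpt2 in WT and 2.10 to 2.49 times in cKO, a log2 difference of 0.53 without overlap. Pdk4 over Pdk2 differed by 1.63, also without overlap. Both had the smallest exact permutation p the design allows, 0.0286 (two-sided, n = 4 per genotype), with 0.0643 after adjustment over the 9 pairs. The other 5 pairs overlapped. Acsl4 over Acsl1 differed by 0.71 (exact permutation p = 0.0571, adjusted 0.103) and Acsl5 over Acsl1 by 0.22 (p = 0.0857, adjusted 0.129). Eci2 over Eci1, Bdh1 over Acat1 and Acadm over Acadl differed by 0.17, 0.18 and 0.04, with exact permutation p of 0.229, 0.314 and 0.371.

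**Figure D3:**
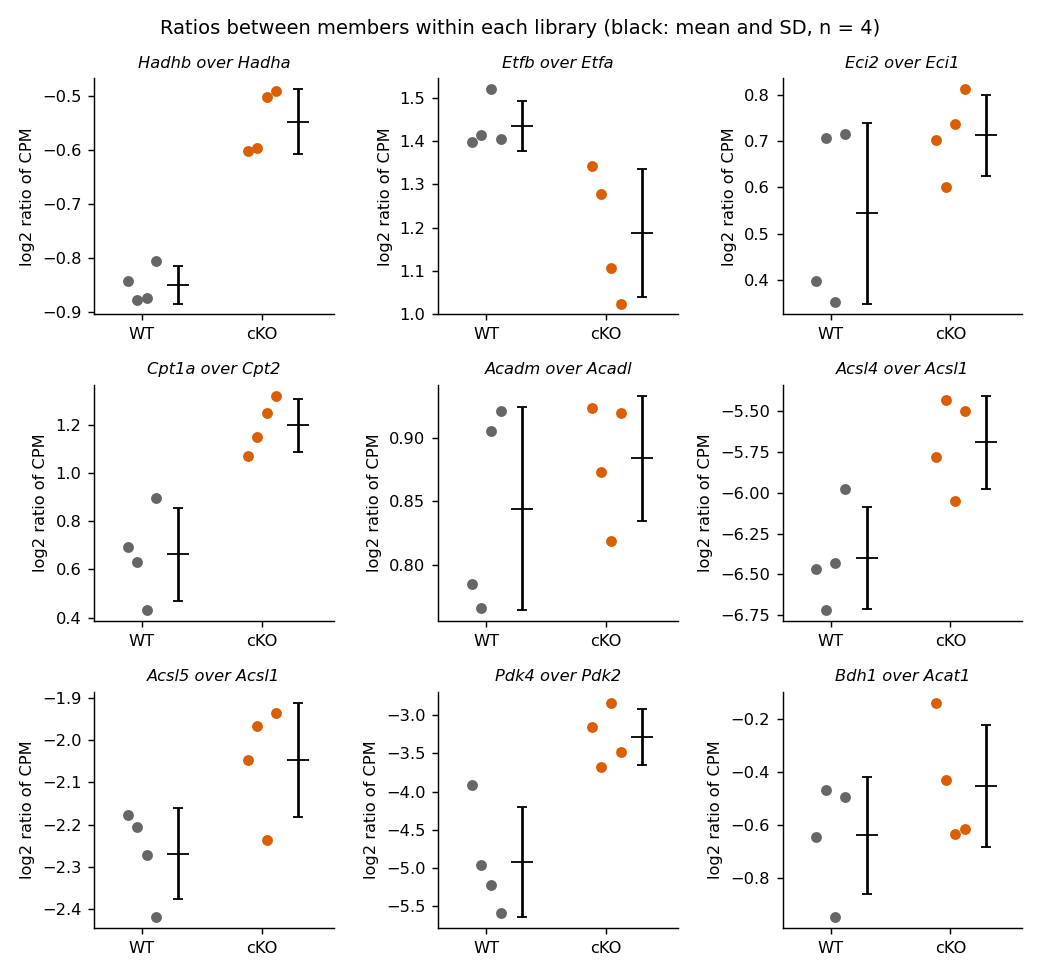
Log2 ratio of CPM between 2 members in the same library (y axis), 1 point per library, for each of the 9 pairs compared, WT in grey and cKO in orange, with the mean and SD of 4 libraries in black; each pair has its own scale. Genotypes are apart in Hadhb over Hadha, Etfb over Etfa, Cpt1a over Cpt2 and Pdk4 over Pdk2, and overlap in the other 5 pairs.

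Levels of members spread widely per length. In WT the most abundant were Etfb at 1064 ± 48.3 TPM, Acaa2 at 865 ± 15.5 and Acadvl at 489 ± 16.0, and the scarcest were Acsl3, Pdk4 and Ppargc1a at 1.61 ± 0.13, 1.22 ± 0.66 and 1.01 ± 0.19. The 34 members summed to 9391 ± 272 CPM in WT and 9712 ± 610 in cKO, ranges that overlapped (9012 to 9648 and 9038 to 10510). In TPM the sums were 6245 ± 187 in WT and 6927 ± 453 in cKO, with ranges that overlapped only slightly (6014.5 to 6471.5 and 6448.2 to 7496.7). The members that varied most within WT were at low levels, although not every scarce member varied much. The coefficient of variation in WT was 57.9% for Pdk4 and 46.8% for Acot2, against 1.96% for Cpt2 and 2.36% for Acaa2. It was 14.3% for the scarce Acsl3 and 15.2% for the abundant Cpt1a.

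Libraries of 1 genotype differed in how many members they led. Among the 4 cKO libraries, cKO 4 was the highest in 20 of 34 members (58.8%, against 28.1% of all tested genes) and cKO 2 the lowest in 18 (52.9%, against 24.8%). In WT, WT 4 was the highest in 15 members (44.1%, against 29.3%) and WT 3 the lowest in 14 (41.2%, against 20.9%). Without cKO 4 the count of members that rose was 3 in place of 7, without WT 3 it was also 3, and without WT 2 it was 4; Pdk4, Cpt1a and Hadhb were among those that rose in all 8 such fits. The summed stellate cell and fibroblast markers were highest in cKO 4 too, at 211 TPM, as were the summed hepatocyte markers at 77249 TPM. Most of that hepatocyte sum was Alb, at 48443 TPM in cKO 4, and single hepatocyte markers went both ways. Among cKO libraries cKO 4 was highest in Alb, Apoa1 and Cps1, lowest in Ttr, Serpina1c and Hnf4a, and between in Apob and Tat. The part of either cell type in the member levels was not tested.

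**Figure D4:**
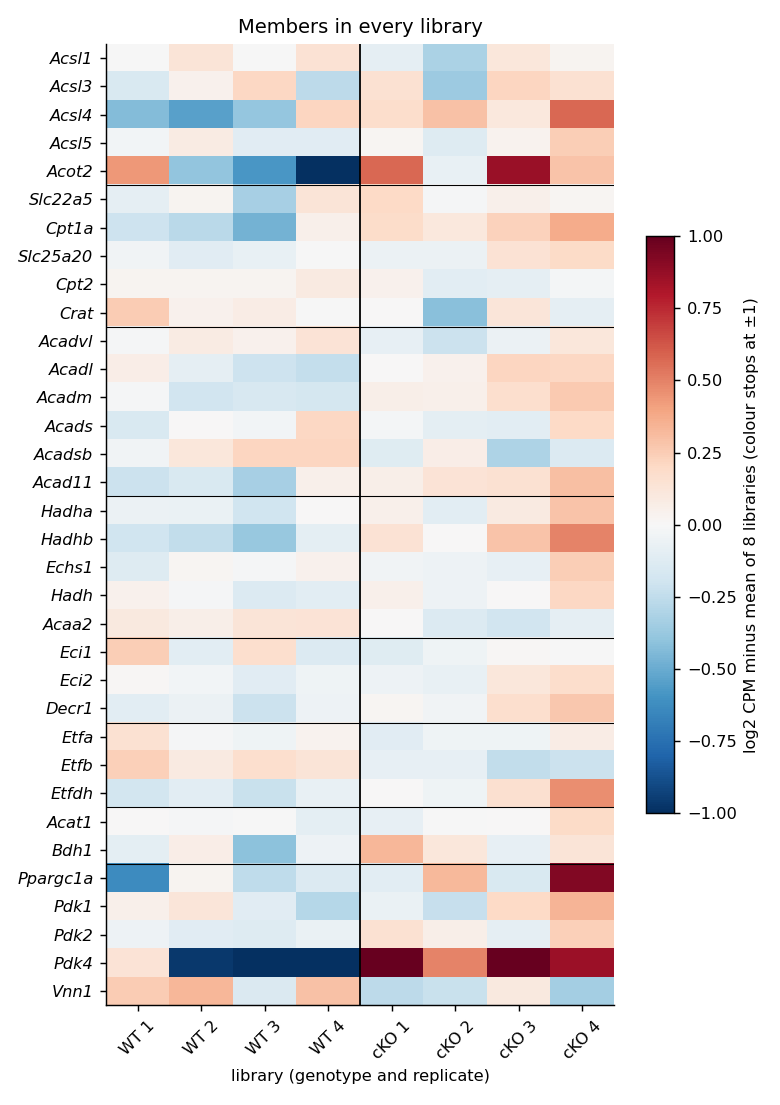
Log2 level of each member in each library minus its mean over the 8 libraries, with members in rows by role and libraries in columns; the colour scale is in log2 units and stops at -1 and 1. Within cKO the fourth library is the highest in 20 of 34 members and the second the lowest in 18.

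The quantifier's own effective length, the read-bearing length averaged over the transcripts to which it assigned reads, differed between genotypes for some members. For Acadvl it was 1239 to 1487 bases in WT and 1509 to 1710 in cKO, without overlap. With this length as an offset the Acadvl change was -0.33 (edgeR adjusted p = 0.00569) in place of -0.12. For Cpt2, at 1350 to 1513 and 1487 to 1645 bases, the change became -0.19 (adjusted p = 0.0456). For Acat1, at 1467 to 1700 and 1619 to 1912 bases, it turned from 0.06 to -0.10 and passed on neither scale. A mean length that differed by over 0.1 on the log2 scale was seen in 6 of 34 members (17.6%), against 12.3% of 11678 genes at 1 TPM or more. Acadsb, Hadhb and Pdk4 were also among the 6 (log2 of cKO over WT -0.113, 0.105 and 0.112). The length of Hadhb was 1346 bases in WT 1, 1608 to 1687 in the other WT libraries and 1671.5 to 1723 in cKO.

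Scaling moved all genes and the members with them. Relative to the TMM scale, the median of all genes was higher by 0.11 with library size alone and by 0.16 on log2(TPM + 1). The members' median was then 0.22 and 0.29, and 13 and 16 members rose while 0 fell (edgeR and limma; 1 member lower at unadjusted p under 0.05 in each). Acadl, Bdh1, Decr1, Hadha, Pdk2 and Slc25a20 passed on both of these scales and not with the settings of the report. Acot2, Eci2 and Hadh passed in TPM alone of these 3 fits. Of all genes called, 50.4% were higher with TMM, 73.1% with library size alone and 80.9% in TPM. The estimate for Etfb stayed negative and those for Pdk4, Cpt1a and Hadhb stayed positive under all 20 alternatives.

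**Figure D5:**
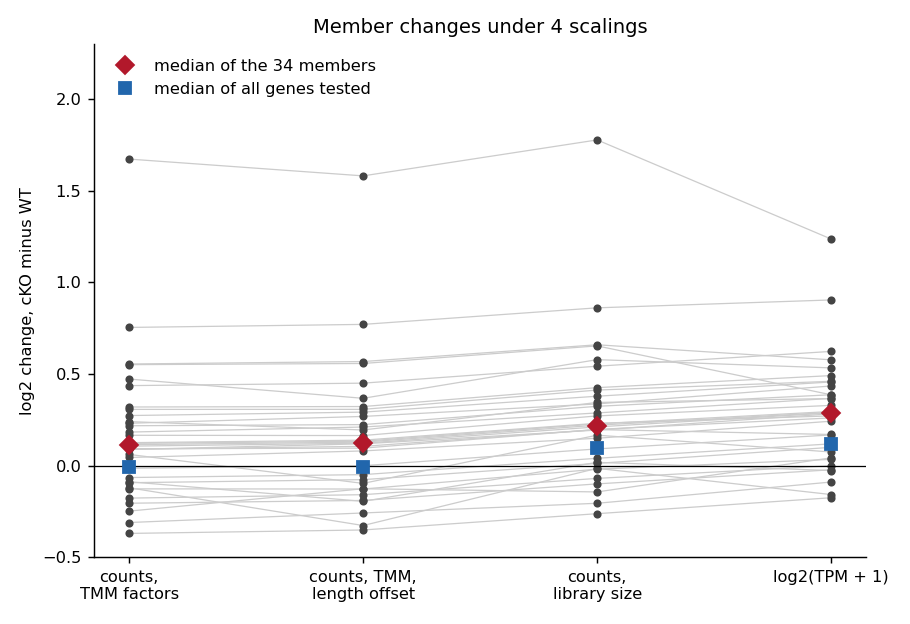
Log2 change (cKO minus WT, y axis) of each of the 34 members under 4 scalings, joined by lines, with the median of the members (diamond) and of all genes tested (square). Both medians move up from the TMM scale to library size alone and log2(TPM + 1), and the members' median is above that of all genes in each.

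Related genes outside the 34 were read from the same fit. Of 38 further tested genes of mitochondrial fatty acid and ketone metabolism 6 rose and 8 fell (median log2 change 0.10). These are 15.8% and 21.1%, against 15.3% and 15.1% of all tested genes. Acot9, a mitochondrial thioesterase, rose from 2.59 ± 0.34 to 5.74 ± 0.52 CPM (log2 change 1.15) and Acad12 rose by 0.87, whereas the medium-chain synthetases Acsm1 and Acsm5 fell by 0.75 and 0.45. Cpt1b, the muscle form of Cpt1a, was at 10.3 ± 2.46 and 10.5 ± 0.52 CPM (adjusted p = 0.888), and the ketone body transporter gene Slc16a6 at 3.56 ± 0.57 and 3.03 ± 0.63 (adjusted p = 0.322). Of 22 regulators 2 rose and 2 fell (9.09% each, below the share of all tested genes, median 0.00). Prkaa2, a catalytic subunit of AMPK, rose by 0.65 and the transcription factor gene Gabpa by 0.25, while Stk11, the kinase upstream of AMPK, fell by 0.36 and Prkab1, a regulatory subunit of AMPK, by 0.26, the last lost under 11 of 20 alternatives. Without WT 3 only 1 regulator rose, and without WT 1, WT 3, cKO 2, cKO 3 or cKO 4 only 1 fell. Ppara, which encodes PPARalpha, was at 33.1 ± 4.66 and 38.2 ± 2.97 CPM and did not pass in the CPM fit (log2 change 0.21, edgeR adjusted p = 0.139). In TPM it was at 45.9 ± 6.31 in WT and 92.3 ± 18.5 in cKO without overlap, and it passed under 4 of 20 alternatives (effective length as an offset, library size alone and both TPM fits), with log2 changes up to 1.00 and adjusted p down to 0.00129. Esrra was at 34.7 ± 1.16 and 31.0 ± 2.02 (adjusted p = 0.0867), Ppargc1b at 3.27 ± 0.82 and 3.25 ± 0.33 (adjusted p = 0.974) and Fgf21 at 4.61 ± 0.75 and 8.21 ± 4.70 (adjusted p = 0.161).

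Among genes on either side of acetyl-CoA, 58.3% of those of pyruvate entry and 47.1% of those of the tricarboxylic acid cycle rose, against 15.3% of all tested genes. Of the 12 genes of the pyruvate dehydrogenase complex, its kinase Pdk3, its phosphatases and pyruvate entry, 7 rose and 0 fell (median 0.33; edgeR, 0 also at unadjusted p under 0.05, in DESeq2 and in limma-voom). They included Pdp1, a phosphatase that opposes the kinase of Pdk4 (0.41 ± 0.07 to 0.97 ± 0.26 CPM, log2 change 1.25), Dld (0.50), Pdhb (0.33) and Dlat (0.33). Of 17 genes of the tricarboxylic acid cycle 8 rose and 0 fell (median 0.22; edgeR, 1 lower at unadjusted p under 0.05, 0 in DESeq2 and in limma-voom), with Sdhd at 0.47, Dlst at 0.37, Idh2 at 0.36 and Suclg2 at 0.31. Without cKO 4 these counts were 4 and 4, without WT 1 they were 4 and 7, and without WT 3 they were 5 and 3. Of 22 tested genes of peroxisomal beta oxidation 4 rose and 3 fell (18.2% and 13.6%, against 15.3% and 15.1% of all tested genes, median 0.11). Ehhadh, the bifunctional enzyme of this pathway, rose from 1050 ± 216 to 2326 ± 356 CPM (log2 change 1.15), Abcd3 rose by 0.42 and Pecr fell by 0.50. Falls in this list numbered 1 in the fit without cKO 1 and 2 in each of the other fits leaving out 1 library. Of 24 nuclear genes of general mitochondrial upkeep 5 rose and 3 fell (20.8% and 12.5%, median 0.09), with Tomm20 at 1.02, Hspd1 at 0.46, Vdac1 at 0.31 and Timm44 at -0.28. Differences between these lists and the 34 members were not tested.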

How the data were processed

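Per the labels' protocols, RNA was extracted with Trizol from frozen liver and libraries came from a TruSeq kit. The submitters' processing notes name STAR 2.5.1, RSEM and the genome build mm10; strand setting and annotation were not given in the sources used here. Per the file headers, the authors deposited RSEM expected counts, in which reads shared by genes are divided between them, effective lengths, and TPM, the authors' estimate per length scaled to the same total in each library. Other columns were not used. Expected counts were rounded, filtered with filterByExpr (minimum count 10, minimum total 15), scaled with TMM and compared with edgeR 4.0.16 (R 4.3.3; estimateDisp, robust glmQLFit with legacy=FALSE, glmQLFTest; Benjamini-Hochberg over 15562 genes). CPM use TMM-scaled totals. Within a genotype, all libraries differed by more than sampling noise. Standard errors were derived from F. Ratios were compared by exact permutation over 70 assignments.

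The members and lists were chosen with earlier results of these data known. Named are all members, the 4 genes of smallest p past the threshold in each other list with the opposite gene of smallest p, and Ctcf, Ppara, Ppargc1b, Esrra, Fgf21, Cpt1b, Slc16a6 and Acot1; some genes and a sequence that the rule covers are not reported here. Hsd17b8 had no unique match by symbol, and Acsl6, Eci3 and Acot5 were under the filter. Alternatives were DESeq2 1.42.0 and its factors, library size alone, a minimum of 1 CPM in 4 libraries or none, effective length as an offset, the replicate number as a block, limma 3.58.1 (voom, and on log2 TPM with a pseudocount of 1 or 0.1), adjusted p under 0.01 and leaving out each library. The legacy form of the test was added after the data were seen. A count of 0 allows up to 0.0524 to 0.0683 reads per 1 M reads of the library total before TMM scaling (3 counts, counting error only). The comparison of cKO with WT was tested on simulated counts for 15367 genes, where it found 64.2% of the 67 genes set to change 1.5-fold and 92.5% of the 67 set to change 2-fold, and where 5.03% of its calls were false. All genes not set to change had equal simulated levels in both genotypes, while in the data 30.4% of tested genes passed. No fold under 1.5 was simulated. The simulated shares may therefore not hold for the calls given here. Gene positions and promoter windows came from RefSeq's GRCm38.p6, the assembly called mm10. Python 3.11.15 and matplotlib 3.10.9 drew the figures.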

Additional observations from a re-analysis of the deposited data

Results flagged for a closer look

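In 8 of 130 sets of 4 libraries (each named gene in each genotype) 1 library stood apart from the other 3, its gap to the nearest of them being most of the range (past Dixon's 95% critical value); chance flags about 1 in 20 sets. In WT 4, Cpt2 was at 258.85 CPM (others 248.83 to 249.19), Acsl4 at 16.736 (9.8608 to 10.998) and Acat1 at 421.01 (446.94 to 451.18). In WT 1, Acadm was at 516.88 CPM (456.71 to 466.24). In WT 3, Pecr was at 187.2 CPM (161.59 to 164.49). In cKO 2, Acsl3 was at 2.9336 CPM (4.2071 to 4.3957). In cKO 4, Echs1 was at 213.83 CPM (169.92 to 175.91) and Suclg2 at 239.33 (205.77 to 210.81).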

How the results depend on the processing

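Over 20 alternatives, 578 of 680 values of members kept their direction and side of the threshold, 39 lost the call, 41 gained it and 22 changed sign; for other named genes the numbers were 571 of 617, 26, 5 and 15, and none of the 81 values of the ratios between members changed sign; no ratio was past 0.05 after adjustment in any of them and the smallest p with all libraries is 0.0286, so their side of the threshold says nothing about stability. With library size alone, 3621 genes rose and 1335 fell, among them 13 and 0 members, 12 further mitochondrial genes higher, 4 and 1 regulators, 7 and 1 peroxisomal genes, and 12 and 0 upkeep genes. On log2(TPM + 1) 767 genes fell and on log2(TPM + 0.1) 760; both gave 16 and 0 members, 11 and 4 further genes, 4 and 1 regulators, 11 and 1 peroxisomal, 13 tricarboxylic acid cycle genes higher, and 14 and 0 upkeep genes. Ctcf was not past the threshold in TPM (-0.18 and -0.15). At adjusted p under 0.01, 1180 genes rose and 1048 fell, with 1 and 1 members, 5 further genes lower, 1 and 0 regulators, 3 pyruvate dehydrogenase genes higher, 1 and 1 peroxisomal, 2 tricarboxylic acid cycle genes higher, and 2 and 0 upkeep genes. DESeq2 and the length offset each gave 4 members lower, the offset also 4 regulators higher; without a filter 1 member and 1 regulator fell. The cause of these shifts was not tested.

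Whether replicate numbers pair the libraries was not settled. Deviations of same-numbered libraries correlated by 0.042 to 0.057, and those of differently numbered libraries by -0.104 to 0.092. Only WT 4 and cKO 2 correlated best with a library of another number, namely with each other (0.092). With the replicate block 2525 genes rose and 2416 fell, among them 9 and 1 members: Ppargc1a (adjusted p = 0.0415) and Bdh1 were higher in addition, and Vnn1 was no longer lower.

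Leaving out 1 library gave 1752 to 2541 genes higher and 1629 to 2509 lower, members 3 to 7 and 1 to 2, further genes 5 to 7 and 7 to 9, regulators 1 to 2 and 1 to 2, pyruvate dehydrogenase 4 to 7 and 0, peroxisomal 3 to 5 and 1 to 2, tricarboxylic acid cycle 3 to 9 and 0, and upkeep 4 to 7 and 3.

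No gene that changed sign was past the threshold with the settings of the report. With library size alone the log2 change was 0.018 for Cpt2, 0.092 for Acads, 0.013 for Eci1, 0.041 for Etfa and 0.097 for Ppargc1b. On log2(TPM + 1) and log2(TPM + 0.1) it was 0.035 and 0.035 for Acsl1, 0.17 and 0.17 for Acads, 0.043 and 0.044 for Acadsb, 0.10 and 0.10 for Eci1, 0.12 and 0.12 for Etfa, 0.11 and 0.22 for Ppargc1b and 0.0073 and 0.0076 for Esrra, and 6.5e-05 for Crat with the first. With the length offset it was 0.00018 for Acads, -0.096 for Acat1 and 0.042 for Ppargc1b, and without a filter 0.0041 for Acads and 0.0087 for Ppargc1b. Ppargc1b also had 0.021 in limma-voom and 0.0092 with the replicate block. Leaving out 1 library changed the sign for Acads (-0.087 to 0.056), Echs1 (-0.037 to 0.091), Ppargc1b (-0.14 to 0.15) and Cpt1b (-0.10 to 0.18).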
